A study of Homo sapiens with 26 samples.

Results

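The genes described here encode the proteasome: 43 transcripts whose symbol is PSMA, PSMB, PSMC, PSMD, PSME, PSMF or PSMG followed by a number, out of 12325 transcripts with counts per codon, of which 11270 could be given a GENCODE symbol. Huh7 cells, a human hepatoma line, had been treated with PF-06446846, a small molecule that stalls ribosomes on selected nascent chains, or with vehicle (0.5% DMSO). Study 1 holds 18 ribo-seq libraries, 3 replicates each of 1.5 μM, 0.3 μM and vehicle after 10 min and after 60 min. Study 2 holds replicates 4 and 5 of 1.5 μM and vehicle after 60 min, each with a ribo-seq and an mRNA-seq library, so 4 of each kind. No gene was altered in any group, and cycloheximide at 100 μg/mL is recorded for every library.

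The proteasome degrades proteins that carry ubiquitin chains. Its 20S core is a stack of rings, the outer ones made of alpha subunits (PSMA) and the inner ones of beta subunits (PSMB), and only PSMB5, PSMB6 and PSMB7 among the constitutive beta subunits cut peptide bonds. The 19S particle caps the core: 6 ATPases (PSMC) unfold the substrate, PSMD1 and PSMD2 are scaffolds of the base, PSMD4 binds ubiquitin, and the lid holds PSMD14, which removes the chain. Other members are the activators PSME1 to PSME4, the inhibitor PSMF1, the chaperones PSMG1 to PSMG4 that build the core and the chaperones PSMD5, PSMD9 and PSMD10 that build the base. In the assembled particle the subunits of a ring or of the cap are present in equal copies.

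The 43 members are 7 alpha and 7 beta subunits of the core, 1 immunoproteasome subunit (PSMB10), 16 subunits of the 19S particle (6 ATPases, 2 of the base, PSMD4 and 7 of the lid), 3 base chaperones, 5 activators or inhibitors and 4 core chaperones. PSMA8, PSMB8, PSMB9, PSMB11 and PSMD13 are not analysed here. Cap subunits without a PSM symbol are not counted among the 16. Together the members held 1.09% to 1.23% of the CDS reads in the 22 ribo-seq libraries and 0.896% to 0.932% in the 4 mRNA-seq libraries. CDS reads ranged from 6414227 to 22224137 per ribo-seq library and from 15227654 to 22036358 per mRNA-seq library. Of the hepatocyte markers listed, 8 of 9 were measured, all but ALB. Their summed density was 10531 to 17886 RPKM in ribo-seq. It was 42.1 to 63.8 RPKM for the 2 of 8 listed markers of blood, endothelial and stromal cells that were measured.

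Each gene is counted on a single isoform, and for 21 of the 43 members that isoform has a shorter CDS than the longest in GENCODE 44. For 8 members it is under 80% of that length: PSMA2, PSMA5, PSMB5, PSMB10, PSMD8, PSMD9, PSMF1 and PSMG4. PSMA2 (70.2%), PSMB5 (77.3%) and PSMD8 (70.6%) are named below as extremes of core or cap, and their values refer to the shorter isoform. PSMB10 (139 codons) and PSMF1 (107 codons) are counted on fragments without an annotated ATG start, so their density and codon numbers refer to those fragments. The rows of PSMB3 and PSMC4 each have a twin, an unnamed transcript with identical counts in all 26 libraries, because reads with several equally good sites were counted at each.

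Footprint density was highest over the core. Density is given as RPKM, the reads of a CDS divided by its length and by the CDS reads of the library, so that genes of different length can be compared. In the 6 vehicle libraries of study 1 the median over the 14 core subunits was 506 RPKM, over the 16 cap subunits 262 RPKM and over the other 13 members 87.9 RPKM, against 15 RPKM over all 12325 transcripts. Of the 14 core subunits, 9 lay above every cap subunit, and 9 of the 16 cap subunits lay below every core subunit.

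Within the core the highest densities were those of PSMB3 (898 ± 74.99 RPKM, SD, n = 6), PSMB1 (831 ± 59.1 RPKM) and PSMA2 (800 ± 51.9 RPKM). The lowest were PSMB5, the chymotrypsin-like active site, at 271 ± 25.0 RPKM, PSMA6 at 318 ± 35.9 RPKM and PSMA1 at 339 ± 16.7 RPKM. The highest core subunit therefore stood 3.31-fold above the lowest, and all 14 lay within 2-fold of the median of the core. Ordered by density, 12 of the 13 neighbouring pairs overlapped between libraries. The exception was the step from PSMA4 (512 to 708 RPKM) to PSMB7, the trypsin-like active site (371 to 502 RPKM).

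Within the cap, PSMC4 (390 ± 30.05 RPKM), the deubiquitinase PSMD14 (381 ± 37.9 RPKM) and the ubiquitin receptor PSMD4 (344 ± 25.3 RPKM) were highest. The lid subunit PSMD6 was lowest at 93.4 ± 5.03 RPKM, below PSMD12, also of the lid (142 ± 9.09 RPKM), and the scaffold PSMD1 (146 ± 10.4 RPKM). PSMD6 was the single one of 16 cap subunits farther than 2-fold from the median of the cap, and the highest cap subunit stood 4.18-fold above it. Only 2 of the 15 neighbouring pairs did not overlap between libraries, PSMD3 with PSMC1 and PSMD12 with PSMD6.

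The chaperones and the immunoproteasome subunit were mostly below the structural subunits, although the chaperones PSMG2 (108 RPKM) and PSMD10 (99.4 RPKM) had a higher mean than PSMD6. The lowest members were PSMG4 at 14.9 ± 2.04 RPKM and PSMB10, which replaces PSMB7 in the immunoproteasome, at 16.04 ± 4.98 RPKM. PSME3, the nuclear activator, was the highest of the others at 242 ± 19.02 RPKM.

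**Figure D1:**
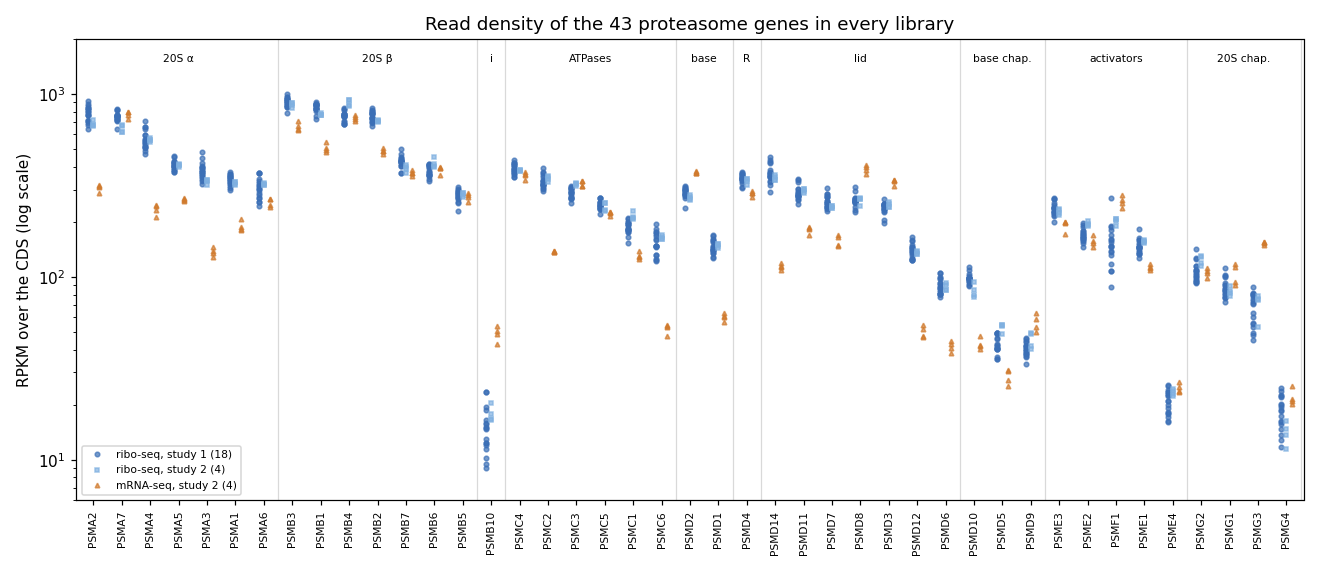
Read density (RPKM, log scale) of each of the 43 proteasome genes, grouped by role and ordered by footprint density, where every point is a library (circles, 18 ribo-seq libraries of study 1; squares, 4 ribo-seq libraries of study 2; triangles, 4 mRNA-seq libraries; i is the immunoproteasome subunit and R the ubiquitin receptor). PSMB3 has the highest and PSMG4 and PSMB10 the lowest footprint density, and the mRNA-seq points fall below the footprints for PSMC6, PSMD12, PSMD14 and PSMA3 and above them for PSMB10 and PSMG3.

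The balance of cap to core was measured in each library as the median density of the 16 cap subunits over that of the 14 core subunits. It was 0.520 ± 0.0417 (SD, n = 18) in the ribo-seq libraries of study 1, with a range of 0.432 to 0.585. In study 2 it was 0.526 ± 0.0111 (n = 4) for footprints and 0.501 ± 0.0236 (n = 4) for mRNA. By group it was 0.490 ± 0.0502 in vehicle, 0.489 ± 0.0301 at 0.3 μM and 0.539 ± 0.0348 at 1.5 μM after 10 min (n = 3 each). After 60 min the same groups gave 0.522 ± 0.0518, 0.527 ± 0.0186 and 0.553 ± 0.0468. The ratios at 1.5 μM overlapped those of vehicle at both times in study 1. In study 2 they were 0.515 and 0.518 at 1.5 μM and 0.533 and 0.537 in vehicle, an order that turned with codons 51 to 16 before the end (0.538 and 0.532 against 0.522 and 0.528). With same-numbered libraries of study 1 after 60 min as pairs, 3 of 3 were higher at 1.5 μM by this measure, but 1 pair was lower with those codons (0.482 against 0.485) and another with means over subunits (0.457 against 0.458). No direction of the ratio with treatment is therefore given. With the mean over subunits in place of the median, the ratio in study 1 was 0.447.

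**Figure D2:**
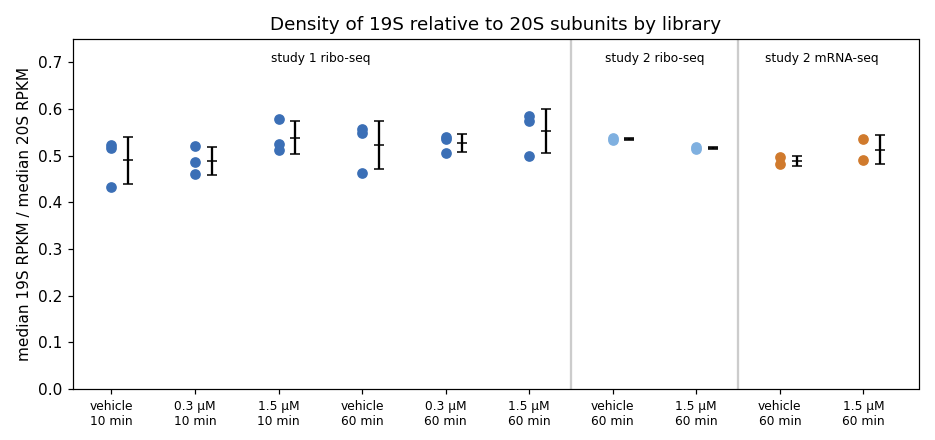
Median RPKM of the 16 measured 19S subunits with a PSMC or PSMD symbol over that of the 14 constitutive 20S subunits. Each point on the linear axis from 0 is 1 library, with the mean ± SD of each group beside it. The points of all 26 libraries lie between 0.432 and 0.585.

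Subunit densities were more even in footprints than in mRNA. The SD of log2 RPKM over the 16 cap subunits was 0.586 ± 0.0174 in the 4 ribo-seq libraries of study 2 and 1.13 ± 0.0425 in the 4 mRNA-seq libraries. For the 14 core subunits it was 0.588 ± 0.00550 in footprints and 0.755 ± 0.0189 in mRNA. In each part the ranges of the 2 kinds of library did not overlap. In vehicle, cap mRNAs differed 10.2-fold between PSMD8 (405 RPKM) and PSMD6 (39.6 RPKM), and cap footprints 4.33-fold between PSMC4 (381 RPKM) and PSMD6 (87.8 RPKM). Over 8560 transcripts with 50 reads or more per library of study 2 and a known CDS sequence, the SD of log2 density was 2.06 in footprints and 1.96 in mRNA, so a narrower spread of footprints was not seen over all genes.

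Translational efficiency (TE) is the log2 of footprint over mRNA density in the same culture, here relative to the median of the 9230 transcripts with at least 50 reads in each library of study 2. Each TE is given as the mean ± SD of the 4 cultures, treated and untreated, since the change with treatment is tested separately. The members' median TE was 0.35, with 32 of 43 above 0. The core stood at 0.50 (13 of 14 above 0) and the cap at 0.69 (13 of 16 above 0), while the core chaperones stood at -0.45.

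PSMC6, an ATPase of the base, had the highest TE at 1.68 ± 0.11, 3.21 times the median transcript, with values of 1.62 and 1.61 at 1.5 μM and 1.65 and 1.85 in vehicle. PSMD14 (1.63 ± 0.07) and PSMD12 (1.46 ± 0.10) followed. PSMB10 was lowest at -1.43 ± 0.24, with -1.23 and -1.22 at 1.5 μM and -1.60 and -1.67 in vehicle, and the core chaperone PSMG3 was next at -1.11 ± 0.24. Among the cap subunits TE was lowest for PSMD8 at -0.54 ± 0.05. Its mRNA was the most abundant of the cap, and that of PSMD12 was among the least abundant (47.2 RPKM).

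The GC content of the CDS moved with these values. PSMC6, PSMD14 and PSMD12 have 41.5%, 42.4% and 40.5% GC, and PSMD8, PSMG3 and PSMB10 have 57.6%, 59.1% and 64.5%. Over the 30 core and cap subunits, Spearman's rho with GC content was -0.86 for TE, 0.70 for mRNA density and 0.16 for footprint density. Over those 8560 transcripts the same values were -0.63, 0.33 and -0.02, and all of these genes share the same 8 libraries. The 10 core and cap subunits under 45% GC had a median TE of 1.30 and the 6 over 55% of 0.04, against 0.85 (2141 transcripts) and -0.64 (3340 transcripts) over all. The part of GC content in the order of TE was not tested.

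**Figure D3:**
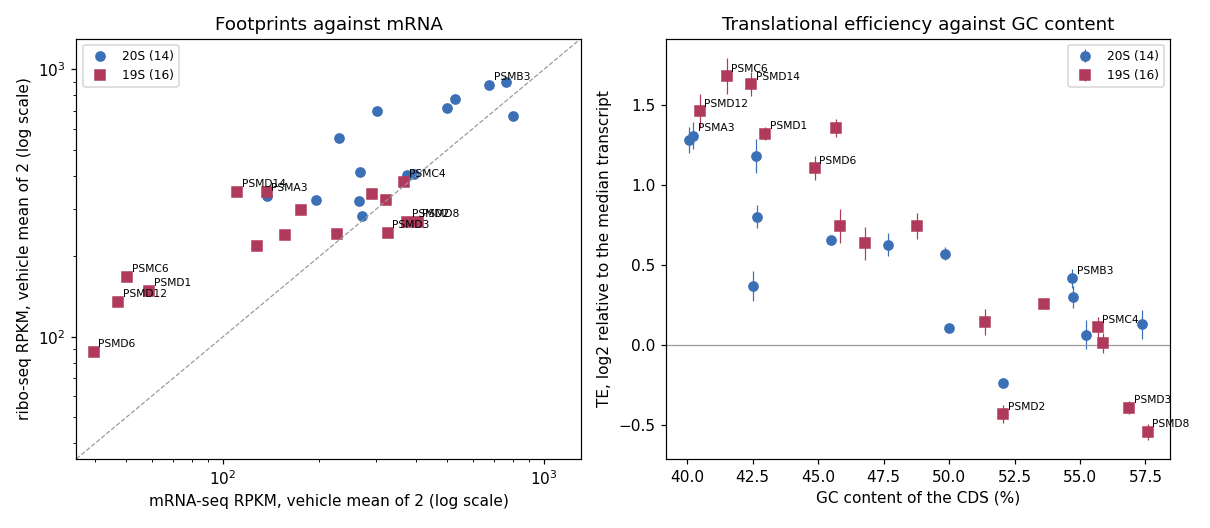
Left, footprint against mRNA density (RPKM, both log scales, mean of 2 vehicle cultures of study 2) of 14 core (circles) and 16 cap (squares) subunits, with equal densities on the dashed line. Right, TE (mean ± SD of 4 cultures, log2 relative to the median transcript) against the GC content of the CDS, where PSMC6 and PSMD14 are highest and PSMD8 is lowest.

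The distribution of footprints along the CDS was described by pause scores. The pause score is the number of reads at a codon over the mean per codon, from codon 16 to the 16th before the end, and the authors assigned each read to the codon in the ribosomal P site. For 40 members no ribo-seq library held under 100 reads, and the highest-scoring codon of each of them had a median score of 3.47 to 15.4 over the 22 ribo-seq libraries. The 6 highest are printed as 30 bases of CDS, read 5′ to 3′ on the coding strand from GENCODE 44 transcripts, with the P-site codon in capitals, because they have the highest median scores of these 40 codons, 1 per member and each relative to the mean of its own gene.
PSMD11, codon 239: gcatttgagggtTATgactccatcgacagc
PSMC4, codon 114: gacgtgctgcccCCCgaagccgacagcagc
PSMA7, codon 136: ctcatcgtgggtTTCgactttgatggcact
PSMD1, codon 721: atcaatgataagCATgatgatgtcatggcc
PSME4, codon 380: ccctcttggttaACTcctgtgcctgatagc
PSMD6, codon 33: cccgagcaccgcGGAgacgctgccgtgcgc
On GRCh38 these P-site codons lie in coding exons. That of PSMD11 is at chr17:32473872-32473874 (plus strand, exon 7 of 13), of PSMC4 at chr19:39974404-39974406 (plus, exon 4 of 11) and of PSMA7 at chr20:62139138-62139140 (minus, exon 4 of 7). That of PSMD1 is at chr2:231153609-231153611 (plus, exon 19 of 25), of PSME4 at chr2:53932011-53932013 (minus, exon 10 of 47) and of PSMD6 at chr3:64023321-64023323 (minus, exon 1 of 8).

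Codon 239 of PSMD11, a lid subunit, had the highest median score of 15.4, with 7.39 at the lowest and 32.5 at the highest of the 22 libraries and 70 to 380 reads. The second-highest codon of the same CDS had a median of 4.82. Codon 114 of PSMC4 had a median of 11.5 (2.85 to 25.4) and codon 136 of PSMA7, an alpha subunit, of 11.1 (6.94 to 16.4). In the 4 mRNA-seq libraries these 3 codons scored 0 to 1.83, 0.648 to 1.36 and 1.40 to 3.10, so each was below its lowest ribo-seq value. Codon 721 of PSMD1 had a median of 9.80 but 1.62 to 4.49 in the 4 libraries of study 2, all below the lowest value of study 1 (4.65). Codon 380 of PSME4, a nuclear activator, rests on 0 to 15 reads per library, and relative to the median of codons with reads its score was 4.25 instead of 8.95.

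**Figure D4:**
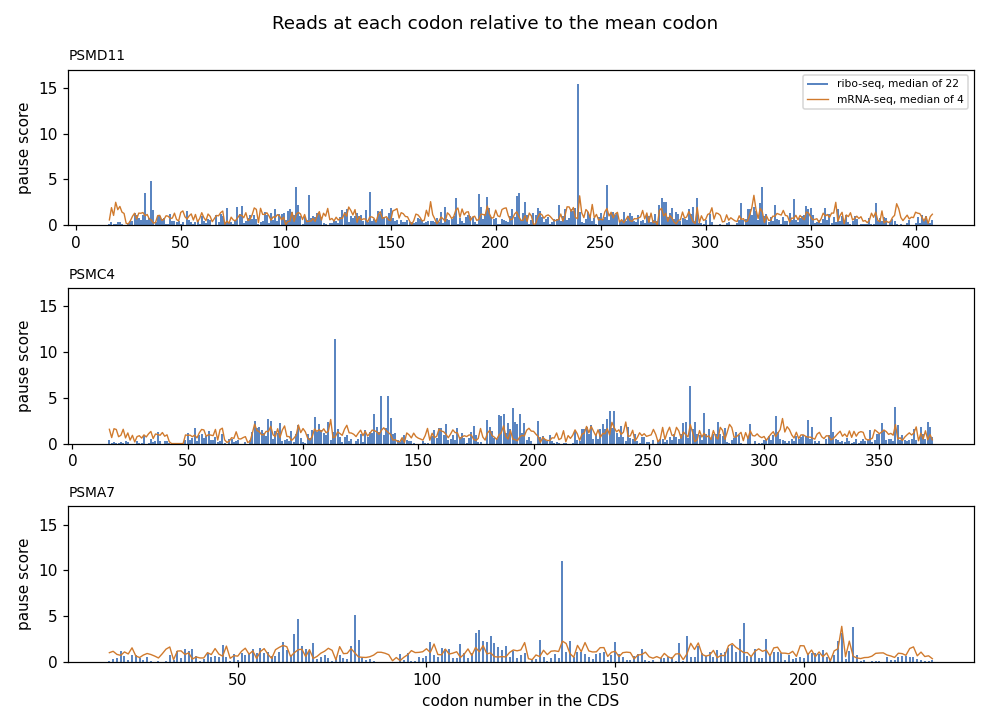
Pause score (reads at a codon over the mean per codon) along the CDS of PSMD11, PSMC4 and PSMA7, with the median of 22 ribo-seq libraries as bars and the median of 4 mRNA-seq libraries as a line. In each gene a single codon (239, 114 and 136) stands above the rest with a median of 15.4, 11.5 and 11.1.

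No difference in these pauses between 1.5 μM and vehicle passed a test. Of 18 exact two-sided permutation tests (6 codons in 3 comparisons), the smallest p was 0.1, the lowest that 3 against 3 can give, and the smallest adjusted p was 0.9. The p of 0.1 came from codon 136 of PSMA7 after 60 min, which scored 10.3 ± 1.17 at 1.5 μM and 12.2 ± 0.570 in vehicle (n = 3 each). Codon 239 of PSMD11 scored 16.6 ± 2.93 and 12.7 ± 4.37 after 10 min and 23.8 ± 8.88 and 18.7 ± 8.16 after 60 min, and 8.94 ± 0.382 and 8.82 ± 2.03 in study 2 (n = 2 each). Codon 114 of PSMC4 scored 7.85 ± 1.06 and 15.2 ± 8.98 after 60 min. Neither 3 against 3 nor 2 against 2 libraries, where the smallest p is 0.333, can pass a threshold of 0.05.

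The number of footprints per member was compared between treated and vehicle cells to ask which proteasome genes respond to the compound. No member passed an FDR of 0.1 in any of 9 comparisons by edgeR's quasi-likelihood test, and DESeq2 called only PSMG4, at 1.5 μM after 10 min, where it called 4.31% of all transcripts. In study 1 the share of all transcripts called was 0.851% for 1.5 μM after 10 min, 0.0726% for 1.5 μM after 60 min (8 transcripts, or 51 with replicates as pairs, none of them a member) and 0.0% for 0.3 μM at both times. In study 2 it was 0.115% in ribo-seq, 0.0% in mRNA-seq and 0.0339% for TE. It was 0.0% for vehicle at 60 against 10 min and 0.0% for the interaction of 1.5 μM and time.

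At an unadjusted p under 0.05, 3 of 43 members were found for 1.5 μM after 10 min, where 17.7% of all transcripts were, and 11 (26.6%) without vehicle replicate 3. There were 2 after 60 min (2.2% of all), 0 and 0 for 0.3 μM (0.934% and 0.871%), 0 in ribo-seq of study 2 (2.97%), 1 in mRNA-seq (1.93%), 2 for TE (3.03%), 2 for vehicle over time (6.93%) and 1 for the interaction (4.53%). 

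Fold changes above 0 were found for 21 of 43 members for 1.5 μM after 10 min (50.8% of all transcripts) and for 19 after 60 min (49.2%). For 0.3 μM they were found for 30 (51.5%) and 21 (48.3%), in study 2 for 13 in ribo-seq (50.2%), 15 in mRNA-seq (49.8%) and 21 for TE (49.0%), and for the interaction for 21 (47.9%). Most fold changes were small. For 1.5 μM after 10 min, 40 of 43 members were within 0.5 of 0 on the log2 scale, with a median standard error of 0.10, and after 60 min 41 of 43, with 0.12. In study 2 all 43 were, with a median standard error of 0.07 in ribo-seq and 0.09 in mRNA-seq.

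**Figure D5:**
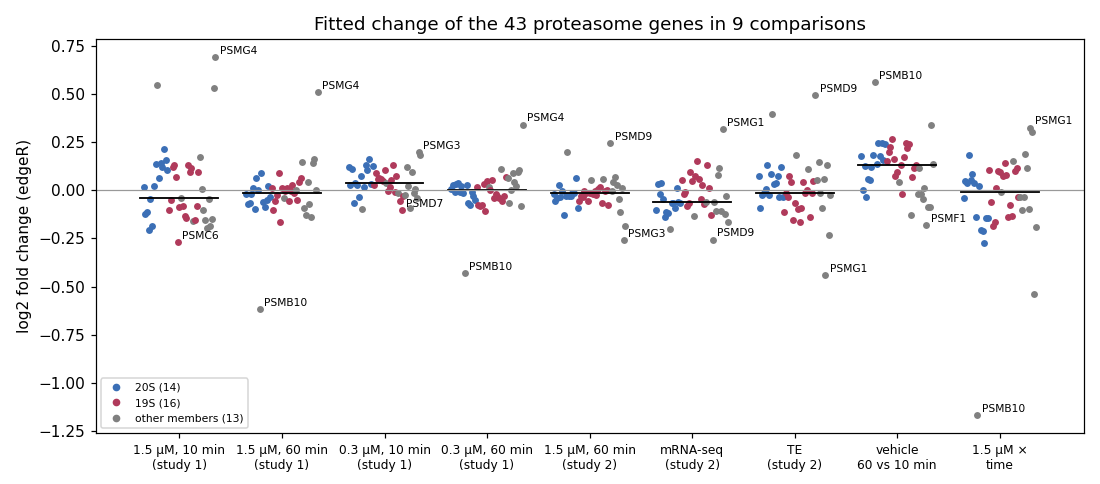
Fitted log2 fold change (edgeR) of each of the 43 members in 9 comparisons, with core subunits in blue, cap subunits in red, other members in grey and the median of all members as a black line. The members with the highest and lowest value are named, and none passed an FDR of 0.1.

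After 10 min at 1.5 μM the highest member was PSMG4, a core chaperone on chromosome 6. Its CPM values (TMM-normalised counts per library size) were 9.32, 8.39 and 8.46 at 1.5 μM and 5.35, 6.22 and 4.39 in vehicle, so the groups did not overlap. The groups of PSMD5, PSMD6, PSMD7 and PSMG1 did not overlap either, with 1.5 μM below vehicle. How many of all transcripts lacked overlap was not counted, and 3 against 3 cannot give an exact permutation p below 0.1. No result about the members is drawn from it. The log2 fold change of PSMG4 was 0.69 (SE 0.19) with an adjusted p of 0.136 by edgeR and 0.096 by DESeq2, and the counts behind it were 37 to 94 reads per library. The lowest was PSMC6, with 150, 153 and 182 CPM at 1.5 μM and 191, 214 and 180 in vehicle. Its log2 fold change was -0.27 (SE 0.11, edgeR adjusted p = 0.244), and the groups overlapped through vehicle replicate 3. Without vehicle replicate 3, edgeR called 4 members, PSMG3 (0.84), PSMG4 (0.59) and PSMB10 (0.86) as higher and PSMC6 (-0.32) as lower, and 14.9% of all transcripts.

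In the same comparison all 7 beta subunits had a positive fold change (0.06 to 0.22) and 5 of the 7 alpha subunits a negative one (-0.21 to 0.02 over the ring), none of them called. The median over members was -0.04, against 0.01 over all transcripts. The difference in each member moved with the GC content of its CDS, with a Spearman rho of 0.86 over the 43 members and of 0.69 over 7631 transcripts that share these 6 libraries. The vehicle libraries differed from each other in the same respect. Replicate 3 against the other 2 gave a rho of 0.62 over the members, and replicate 2 one of -0.59. The part of GC content in the fold changes was not tested. For 1.5 μM after 60 min the rho was 0.11 over the members and 0.03 over all.

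After 60 min at 1.5 μM in study 1, PSMB10 (chromosome 16) was lowest. It had 3.59, 5.59 and 6.30 CPM at 1.5 μM and 6.36, 6.80 and 9.87 in vehicle, a log2 fold change of -0.62 (SE 0.27, edgeR adjusted p = 1.00). PSMG4 was highest at 0.51 (SE 0.21, edgeR adjusted p = 1.00). Counted only after codon 50, its reads had a log2 fold change of 0.51 (SE 0.26) in study 1 and of -0.24 (SE 0.28) in study 2. In study 2 PSMB10 was at 7.35 and 8.51 CPM at 1.5 μM and 6.83 and 7.03 in vehicle, a log2 fold change of 0.20 (SE 0.20). Between the times of study 1, PSMB10 also had the lowest value of the interaction, -1.17 (SE 0.41, edgeR adjusted p = 0.856).

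At 0.3 μM the extremes were PSMG3 (0.20) and PSMD7 (-0.10), a lid subunit, after 10 min, and PSMG4 (0.34) and PSMB10 (-0.43) after 60 min. The median over members was 0.04 after 10 min and -0.00 after 60 min. Both doses were compared with the same vehicle libraries at each time. The ribo-seq extremes in study 2 were PSMD9 (0.24), a base chaperone, and PSMG3 (-0.26).

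In the mRNA-seq libraries PSMG1, a core chaperone, was highest with 89.9 and 95.2 CPM at 1.5 μM against 76.4 and 71.9 in vehicle. That is a log2 fold change of 0.32 (SE 0.10, edgeR adjusted p = 1.00). PSMD9 was lowest at -0.26 (SE 0.15). These same members, with the directions exchanged, gave the extremes of the change in TE, PSMD9 at 0.49 (SE 0.17) and PSMG1 at -0.44 (SE 0.13), which share these mRNA-seq libraries. Over the 43 members the median change in mRNA was -0.06, with 15 positive, where 49.8% of all transcripts were. Without vehicle replicate 4 the median was -0.02 with 19 positive, and without vehicle replicate 5 only 9 were positive. This change moved with GC content at a rho of -0.52 over the members and -0.32 over all transcripts.

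In vehicle cells, most core and cap subunits had a fitted footprint count above that of 10 min after 60 min, without passing the test. The median log2 difference over the members was 0.13, with 33 of 43 positive, against -0.00 and 49.6% over all transcripts. All 7 beta subunits (median 0.18), all 6 ATPases (0.18) and 5 of 7 alpha subunits (0.06) were positive, while 2 of 5 activators or inhibitors (-0.02) and 1 of 3 base chaperones (-0.02) were. No member was called, and PSMC4 (0.27, SE 0.11) and PSMD4 (0.24, SE 0.11) had the 2 unadjusted p-values under 0.05. Without vehicle replicate 3 of 10 min there were 13 such members, all higher at 60 min (10.9% of all transcripts), and leaving out any 1 of 4 other libraries gave 0. The difference moved with GC content at a rho of 0.50 over the members and 0.40 over all transcripts. The highest member was PSMB10 at 0.56 (SE 0.28) and the lowest PSMF1, the inhibitor, at -0.18 (SE 0.11).

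To ask whether ribosomes stall on a member, the cumulative reads along each CDS were compared between 1.5 μM and vehicle. The largest excess of the treated cumulative share, Dmax, was divided by its root mean square among 300 transcripts of similar depth. The quotient is called the Z-score here. Reads after the Dmax position were tested where it was 2 or more, and reads after codon 50 otherwise. PSMG4 after 10 min had a Z-score of 3.10 at codon 71 and PSMB10 after 60 min of 2.22 at codon 61, the 2 values of 2 or more in 43 members over 3 comparisons. Of all transcripts, 3.49%, 2.63% and 2.28% had one in the 3 comparisons. Counted in SD from the mean of the transcripts of similar depth, PSMG4 was at 4.20 and PSMB10 at 2.75. In study 2 the highest Z-score of a member was 1.49. Without pairing of the libraries, no member was called for fewer reads downstream, where 1.43%, 0.206% and 0.309% of all transcripts were.

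The share of PSMG4 reads up to codon 71 was 73.0%, 71.3% and 64.6% at 1.5 μM after 10 min and 39.4%, 32.1% and 27.0% in vehicle, and Dmax chose the codon on these libraries. At 0.3 μM after 10 min it was 48.0%, 42.2% and 45.9%, above the same vehicle libraries and below 1.5 μM. Both of those groups took part in the choice of codon 71, which tends to place a group left out of it between them. An effect of dose was not tested. At the same codon after 60 min it was 36.1%, 59.3% and 67.0% at 1.5 μM and 33.3%, 63.3% and 66.1% in vehicle, which overlap. The difference was -0.09 percentage points (exact permutation p = 1.00, n = 3 each). For PSMB10 the share up to codon 61 after 60 min was 53.0%, 60.5% and 74.3% at 1.5 μM and 33.3%, 42.7% and 44.4% in vehicle. Its downstream reads had a log2 fold change of -1.32 (SE 0.29, edgeR adjusted p = 0.215), and in a fit that treats same-numbered libraries as pairs the adjusted p was 0.063, which passes, as 0.402% of all transcripts did. Dmax chose codon 61 on these same libraries, which favours fewer treated reads after it. Neither p is therefore from an independent test.

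Libraries that did not choose codon 61 gave mixed values for PSMB10. At 0.3 μM after 60 min the share was 56.4%, 64.6% and 45.7%, all above the same vehicle libraries, which did take part in the choice. In study 2 it was 60.0% and 78.3% at 1.5 μM and 63.8% and 62.9% in vehicle (exact permutation p = 1.00, n = 2 each, the smallest possible being 0.333). After 10 min it was 57.0% ± 19.3 at 1.5 μM and 54.5% ± 8.48 in vehicle (exact permutation p = 0.9, n = 3 each). The groups overlapped in study 2 and after 10 min, and the 4 tests of this kind on the 2 genes had an adjusted p of 1.00. Between 38 and 115 reads per ribo-seq library lay behind each of these PSMB10 shares.

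The start of the CDS carried fewer reads than the rest. Over the 36 members with at least 200 codons and 20 reads per library, the median density of codons 2 to 50 relative to the whole CDS was 0.621 ± 0.0437 at 1.5 μM and 0.559 ± 0.0438 in vehicle after 10 min (n = 3 each). Over 8022 transcripts the same values were 0.682 ± 0.0373 and 0.588 ± 0.0407. After 60 min the members were at 0.549 ± 0.0293 and 0.574 ± 0.00492. In study 2 they were at 0.719 ± 0.0124 and 0.702 ± 0.0161 (n = 2 each). For the members, the treated and vehicle libraries overlapped in each of these 3 comparisons, whereas over all transcripts they did not after 10 min (0.640 to 0.712 against 0.549 to 0.630). By number, the members after 10 min were also higher at 1.5 μM each time (0.663 against 0.512, 0.624 against 0.600 and 0.575 against 0.564). Within pairs of the same number, the members' value at 1.5 μM was below vehicle in 3 of 3 pairs after 60 min in study 1 (0.550 against 0.569, 0.577 against 0.579 and 0.518 against 0.575). In study 2 it was above vehicle under both numbers (0.710 against 0.691 and 0.728 against 0.713), and the difference between the studies was not tested. Over all transcripts the groups were at 0.598 and 0.594 after 60 min, with 2 of 3 pairs lower at 1.5 μM, and at 0.749 and 0.737 in study 2.

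The other genes of the pathway were 29 of 29 measured and edgeR called none in any comparison. For 1.5 μM after 10 min, DESeq2 called 3 of them (4.31% of all transcripts), and edgeR called 5 without vehicle replicate 3 (14.9%), 3 with the replicate block (10.8%) and 1 with codons 51 to 16 before the end (300 of 10575 transcripts). For vehicle over time DESeq2 called 1 of them (43 of 12042 transcripts). For 1.5 μM after 10 min, 5 of 29 had an unadjusted p under 0.05 (17.7% of all transcripts) and the median log2 fold change was -0.06. The lowest was UCHL5 (-0.38, SE 0.11, edgeR adjusted p = 0.136), a deubiquitinase of the 19S particle. In mRNA-seq DDI2, a protease that activates the transcription factor of proteasome genes, was highest (0.59, SE 0.20, edgeR adjusted p = 1.00).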

How the data were processed

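The authors prepared ribo-seq and mRNA-seq libraries, trimmed reads, removed rRNA reads and aligned the rest with Bowtie 1.1.2 to 1 isoform per gene (chosen with kallisto 0.42.5, Ensembl 78, GRCh38), keeping reads with up to 5 best sites. They deposited the raw count of reads per codon (P site, 14-nt offset), without normalization.

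Here counts were summed per CDS and tested with edgeR 4.0.16 in R 4.3.3 (filterByExpr, TMM, glmQLFit, glmQLFTest; standard error from fold change and F) over all transcripts, with Benjamini-Hochberg adjustment, an FDR of 0.1 and only the compared groups in a fit. DESeq2 1.42.0 was an alternative. Dmax needed 10 reads per group and a Z-score of 2. Densities, pause scores and exact permutation tests used Python 3.11.15 and scipy 1.17.1. The study describes its replicates as biological. Every pair of replicates differed beyond sampling noise (chi-square per transcript of 4.57 to 53.7). The fits were tested on simulated data.

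Same-numbered libraries were taken as pairs where each correlation of their deviations, over 8181 transcripts, was above 0.1. This held for 1.5 μM against vehicle after 60 min (0.55, 0.42 and 0.60) and for 0.3 μM (0.16 to 0.61). It also held in study 2 (0.35 in ribo-seq and 0.11 in mRNA-seq). For 1.5 μM after 10 min the correlations were 0.25, 0.25 and 0.06, so replicate 3 did not meet this rule. Values are from fits without pairs unless stated, and the paired fit was an alternative.

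The named members were those with the highest and lowest fold change (50 reads per library or more), the 3 highest and lowest densities of core and cap, the extremes of TE, the 6 highest pause codons (1 per member) and those with a Z-score of 2. Members and lists were chosen with earlier results of these data known. For 1 gene of the pathway list and for the codons beside the pauses, values are not reported here.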

Additional observations from a re-analysis of the deposited data

Results flagged for a closer look

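PSMB10, the immunoproteasome subunit, had fold changes of opposite sign after 60 min at 1.5 μM in the 2 studies. In study 1 all 3 treated libraries lay below all 3 vehicle libraries, with a log2 fold change of -0.62, and in study 2 both treated libraries lay above both vehicle libraries, with 0.20. The difference between the studies was not tested, and neither value was called by edgeR (adjusted p = 1.00 for each). Groups without overlap cannot have an exact permutation p below 0.1 with 3 against 3 libraries or 0.333 with 2 against 2. Other members did not overlap after 60 min either. In study 1 this was PSMG4, with the treated libraries above vehicle. In study 2 they lay above vehicle for PSMA4, PSMD9, PSME2 and PSME3. They lay below it for PSMA5, PSMA7, PSMB1, PSMB2, PSMB7, PSMC6, PSMD4, PSMD8 and PSMG1. The share of all transcripts without overlap was not counted, so the lack of overlap is not read as a result about PSMB10 or the other members.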

How the results depend on the processing

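No member was called in 8 of the 9 comparisons under any alternative run. These were DESeq2, its size factors, low counts unfiltered, FDR 0.05, codons 51 to 16 before the end, the replicate number as a block, all 18 libraries in a fit (study 1, except the interaction) and leaving out each library. FDR 0.05 cannot add a call to the main fit. For 1.5 μM after 10 min, DESeq2 called 1 member (PSMG4), the replicate block 2 (PSMG3 and PSMG4, with 1196 transcripts in all against 94), and leaving out a library 0 to 4, the 4 without vehicle replicate 3 (1656 transcripts in all); the cause was not tested. The deviations of same-numbered libraries correlated there at 0.25, 0.25 and 0.06, so replicate 3 did not meet the rule for pairs. Over all transcripts the count of calls also moved to 519 (DESeq2), 300 (codons 51 to 16 before the end), 30 (all libraries), 29 (FDR 0.05) and 9 (without vehicle replicate 1). For 1.5 μM after 60 min it moved from 8 to 17 (DESeq2), 19 (codons 51 to 16 before the end), 14 (all libraries) and 0 to 8 (leaving out a library), in study 2 ribo-seq from 13 to 129 with the block or without 1.5 μM replicate 5, for TE from 4 to 128 without vehicle mRNA-seq replicate 4, and for vehicle over time from 0 to 43 with DESeq2. The downstream test called 0 members under each alternative except the replicate block after 60 min, which called 1 (PSMB10, as above). For 1.5 μM after 10 min without vehicle replicate 3, 4 members passed the FDR of 0.1 on the reads tested. None of them met the other conditions of a call, and the share of all transcripts that passed in this way was not counted. Of 18 named fold changes over 234 alternatives, 233 values kept their direction, and PSMG3 at 0.3 μM after 10 min reversed to -0.079 with codons 51 to 16 before the end. The 18 were chosen as extremes of the main fits, and the alternatives use the same libraries. FDR 0.05 leaves the fold change itself unchanged. The count is therefore no independent test of direction.

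With the mean over subunits the cap to core ratio was 0.447 in study 1 and 0.464 in ribo-seq of study 2. With codons 51 to 16 before the end, the spread of the core was 0.638 and 0.611 in ribo-seq of studies 1 and 2 and that of the cap 0.606 in study 2. Relative to the median of codons with reads, the score of PSMA7 was 15.996, and that of PSME4 fell from 8.95 to 4.25. Leaving out single libraries gave ratios of 0.516 to 0.525, 0.522 to 0.529 and 0.489 to 0.507 for study 1 and for ribo-seq and mRNA-seq of study 2. The 37 to 155 reads per ribo-seq library of PSMG4 and PSMB10 limit the precision of their shares.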
